A study of Mus musculus with 2 samples.

Results

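Hoxc8, Hoxb4, Hoxa2 and the antisense transcript Hoxb5os were followed in 2 mouse mesoangioblast clones, D351 and D16. All probe sets that the platform annotation assigns to 1 of these 4 genes alone were taken, which gave 6 of the 11934 probe sets in the deposited table and 4 of 5928 genes. Mesoangioblasts are vessel-associated mesodermal progenitors. Both clones came from the dorsal aorta of C57BL6 embryos at embryonic day 9.5, were cloned on growth-arrested primary embryonic fibroblasts after 5 days of explant culture, and were expanded on gelatin. No treatment or genetic change is named for either clone, and D351 and D16 each stand for 1 clone and 1 array of total RNA hybridised to the C chip of Affymetrix's U74 series for mouse. No difference below therefore has a replicate check or a p-value. The 4 genes were chosen by their intensity ratios between these same arrays, so the ratios are a description.

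Hox genes encode homeodomain transcription factors that give cells along the head-to-tail axis their regional identity. In mammals they lie in 4 clusters, and the order of genes in a cluster follows the order of their expression domains: genes of low paralogue number reach furthest towards the head, genes of high number lie furthest towards the tail. Mesenchymal cells such as fibroblasts keep much of this code in culture, which makes Hox transcripts a record of where a cell line came from. Hoxa2 patterns the hindbrain and the neural crest of the second branchial arch. Hoxb4 acts at hindbrain and neck levels and in blood-forming progenitors. Hoxc8 marks thoracic levels of the trunk. Hoxb5os is a long non-coding RNA of the Hoxb cluster, and in the RefSeq annotation the genes Hoxb5 and Hoxb6 lie wholly inside its span.

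RefSeq promoter windows (build GRCm38.p6) from 250 bases before to 50 bases after the start site were held for 2 of the 4 genes, Hoxa2 and Hoxb4, which differed in opposite directions between the clones by their brightest probe sets. They are shown to let the start regions of a head-level gene and a neck-level gene be compared. Capitals mark matches on either strand to TGATNNAT (the PBX-HOX composite), TGACAG (the MEIS core), CCAAT (the NF-Y box) and AGGTCA (the nuclear receptor half-site, read as TGACCT on the other strand).
Hoxa2, chr6:52164782-52165081, minus strand: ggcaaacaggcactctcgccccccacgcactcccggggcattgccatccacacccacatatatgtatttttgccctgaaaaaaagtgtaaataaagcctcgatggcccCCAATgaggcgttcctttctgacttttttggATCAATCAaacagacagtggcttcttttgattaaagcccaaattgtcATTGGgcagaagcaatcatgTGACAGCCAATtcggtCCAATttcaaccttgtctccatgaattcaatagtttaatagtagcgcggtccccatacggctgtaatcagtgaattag
Hoxb4, chr11:96318017-96318316, plus strand: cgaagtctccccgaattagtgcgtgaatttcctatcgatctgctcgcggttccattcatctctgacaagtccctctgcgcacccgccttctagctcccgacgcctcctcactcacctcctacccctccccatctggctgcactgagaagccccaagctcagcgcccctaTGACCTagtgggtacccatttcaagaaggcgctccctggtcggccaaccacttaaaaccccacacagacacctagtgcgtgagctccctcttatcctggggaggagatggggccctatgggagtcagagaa

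The Hoxa2 window held 1 match to TGATNNAT, starting 111 bases before the start site, and 8.85% of all 32851 promoter windows held at least 1. Its single TGACAG match began 44 bases before the start, and 19.2% of windows held this word. CCAAT occurred 4 times in the Hoxa2 window, once directly after the MEIS core without overlap, and 0 times in the Hoxb4 window, beside at least 1 match in 37.4% of windows. The Hoxb4 window held 1 AGGTCA match, 81 bases before the start, a word found in 16.3% of windows. Neither window held TATAAA (13.6% of windows) or CACGTG, the E-box bound by USF proteins (7.15%). The homeodomain core TAAT, which was searched but is not capitalised, occurred 4 times for Hoxa2 and 1 time for Hoxb4, and 58.0% of windows held it. The Hoxb4 window was richer in CpG, with 14 such pairs and 58% G and C, while the Hoxa2 window had 9 pairs and 45.7% G and C, beside medians of 7 pairs and 52.7% over all windows. A match is a description of the letters, and no binding was measured.

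The deposited values were linear intensities in arbitrary units, 1 for each probe set on each array. The pooled median of all values that were not controls, 6.4, was used as a floor. Readings no higher than this are called dim and were set to it before taking log2, and a gene counts as measured if either clone exceeded it. A ratio with a dim value is a lower bound, written "at least". The highest of 38 negative control values was 11.2. Over 409 genes with paired probe sets, log2 ratios of the same gene differed with an SD of 0.67 for each probe set, the only measure of error that these arrays offer. The 9 hybridization control probe sets had a median log2 ratio (D351 minus D16) of -0.67, so every direction holds relative to the average probe set on each array. A difference in RNA per cell and a difference in the share of cells that carry it cannot be told apart in such samples.

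Hoxb5os gave the largest difference of all 3934 measured genes towards D351. Its probe set 167467_i_at read 795.4 in D351, against 2.2 in D16. The D351 value was among the brightest on that array, with only 43 of 11868 probe sets above it, whereas in D16 the signal was dim and lay inside the negative control range. Against the floor of 6.4 the transcript was at least 124-fold higher in D351 (log2 ratio at least 6.96). The letter i in the probe set's name means that it was built from fewer probes than usual, and no other probe set measured this gene. The size of the bound is set by the floor, and at the 75th percentile of all values, 20.7, it was at least 38.4-fold.

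Hoxc8 followed the same direction. Its probe set 136504_at, whose name carries no such letter, read 228.2 in D351, against 7.6 in D16. In D351, 288 probe sets were brighter, while the D16 reading lay above the floor but inside the negative control range. With the floor at 20.7, above the D16 value, Hoxc8 was at least 11.0-fold higher in D351. The readings themselves stood 30.0-fold apart (log2 ratio 4.91), a size that rests on a D16 value no brighter than the negative controls.

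Hoxb4 was the only one of the 4 genes with several probe sets, and these did not give the same answer. The brightest, 132496_f_at, read 270.8 in D351, against 50.8 in D16, a 5.33-fold difference (log2 ratio 2.41). The unmarked probe set 135977_at read 11.6 in D351, against 8.9 in D16, which is 1.30-fold (log2 ratio 0.38) and close to background in both clones. The third, 168838_r_at, read 5.8 in D351, against 15.8 in D16, so that it was at least 2.47-fold higher in D16 (log2 ratio -1.30). The clones thus stood far apart by the first probe set, near each other by the next and in the opposite order by the last. The letter f marks a probe set that shares sequence within a gene family and r one for which the usual selection rules were relaxed. Of 111 genes with 3 or more measured probe sets, 6 (5.41%) had at least 1 past 2-fold in each direction, Hoxb4 among them, and only the brightest Hoxb4 probe set was above 20.7 in either clone. The direction given for Hoxb4 therefore rests on 132496_f_at alone.

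Hoxa2 lay the other way. Its single probe set 171063_at, also unmarked, read 20.6 in D351, against 95.1 in D16. Both readings were above the negative controls. Hoxa2 was 4.62-fold higher in D16 (log2 ratio -2.21), with 50 measured genes showing a larger ratio or bound towards D16. In D16, 749 of 11868 probe sets were brighter, and in D351 the number was 3013.

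**Figure D1:**
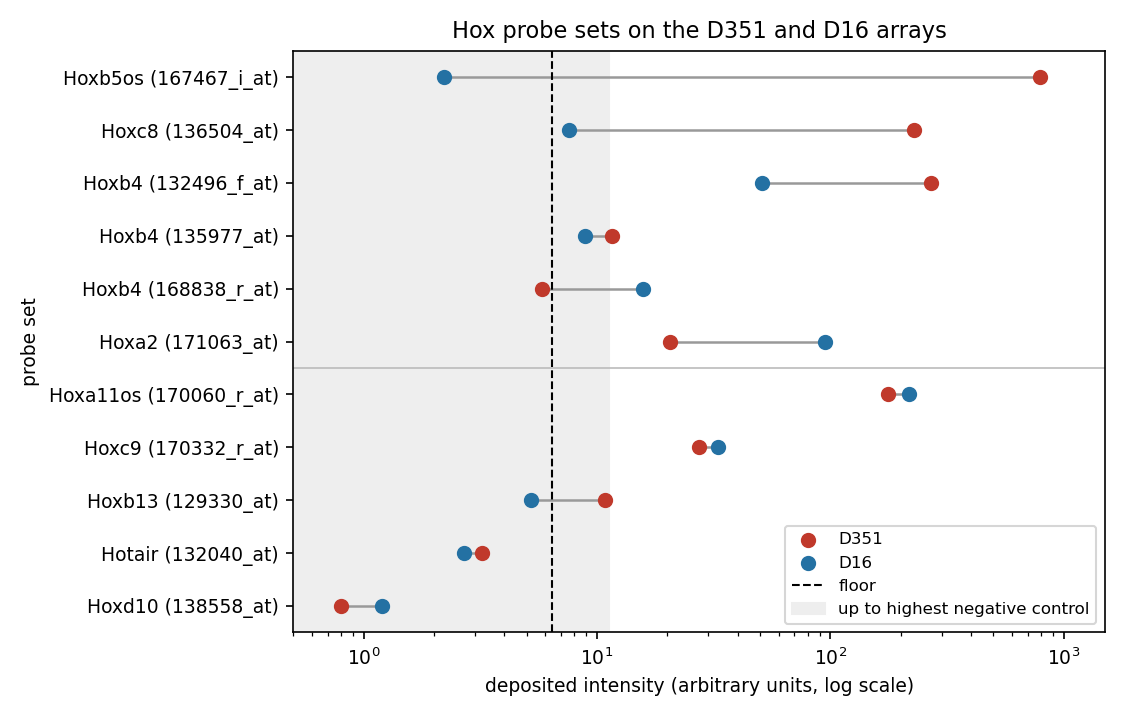
Deposited intensity (log axis) of each Hox probe set on the D351 array (red) and the D16 array (blue), with the 6 probe sets of Hoxb5os, Hoxc8, Hoxb4 and Hoxa2 above the grey line and the other Hox transcripts below it. The dashed line is the floor of 6.4 and the shaded area ends at the highest negative control, 11.2; Hoxb5os and Hoxc8 leave the shaded area only in D351.

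All 4 genes were past 2-fold by their brightest probe sets, 3 higher in D351 and 1 in D16. Among all 3934 measured genes, 404 (10.3%) passed 2-fold towards D351 and 403 (10.2%) towards D16, or 20.5% in either direction. The choice of the 4 genes used this contrast, so nothing is read from their count. At 16-fold or more, a size that Hoxb5os passed with the floors of 6.4 and 20.7 and Hoxc8 with that of 6.4 but not 20.7, 17 measured genes (0.432%) were higher in D351. Among bright probe sets, those with a value of at least 64 in either clone, 12.7% passed 2-fold towards D351 and 13.9% towards D16.

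**Figure D2:**
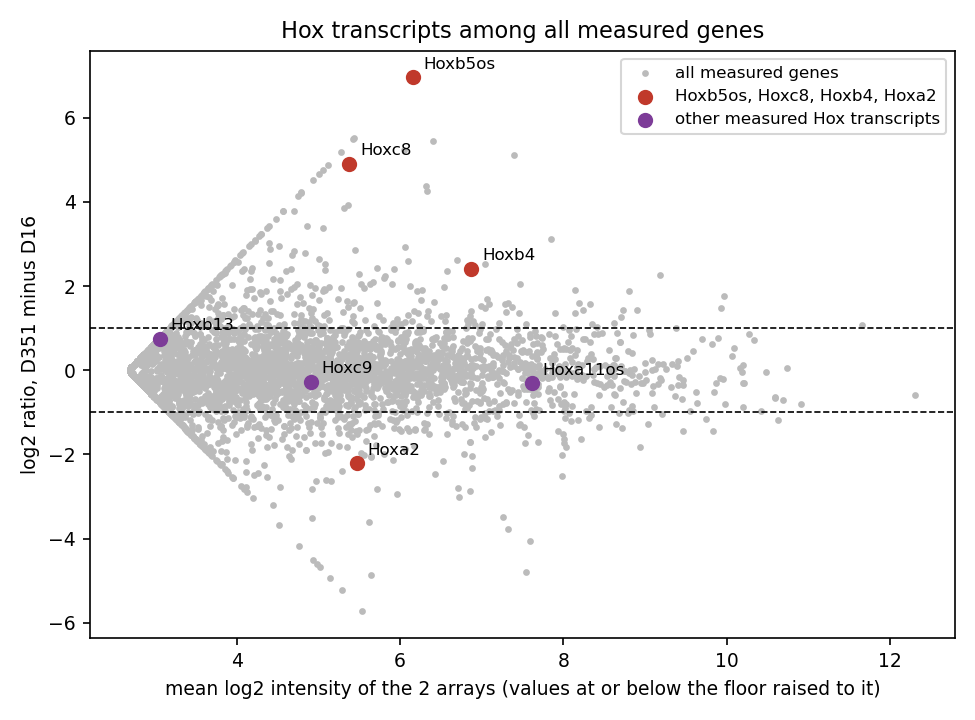
Log2 ratio of D351 to D16 against the mean log2 intensity of both arrays for the 3934 measured genes (grey), with dashed lines at 2-fold. Hoxb5os (6.96, a lower bound), Hoxc8 (4.91) and Hoxb4 (2.41) lie above the upper line and Hoxa2 (-2.21) below the lower one, while Hoxc9, Hoxa11os and Hoxb13 (a lower bound) lie between the lines.

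Here and below, a gene is called on the array if the annotation assigns a probe set to it alone, and other probe sets were not searched. Of the 39 Hox genes in the clusters, 6 were on the array, together with 3 non-coding transcripts of the clusters. Of the other 5 of these 9 transcripts, 2 were above the floor in both clones with ratios under 2-fold, 1 gave only a lower bound, and 2 were dim in both clones, so that no difference could be measured for them. Hoxc9, the neighbour of Hoxc8 towards the tail end of its cluster, read 27.4 in D351, against 33.0 in D16 (log2 ratio -0.27). The large Hoxc8 difference thus stood next to a gene with similar readings in both clones, although the Hoxc9 probe set carries the mark r. Hoxa11os, the antisense transcript of the limb and uterus gene Hoxa11, was bright in both clones at 175.9 in D351, against 216.9 in D16 (log2 ratio -0.30). Its only probe set carries the mark r as well. Hoxa11os lies in the same cluster as Hoxa2, at the far end from it.

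Hoxb13, the gene at the tail end of the Hoxb cluster, read 10.8 in D351, against 5.2 in D16, both within the negative controls. This is at least 1.69-fold higher in D351. A lower floor of 1.8, the 25th percentile, gave 2.08-fold and scaling to the hybridization controls at least 2.18-fold, so its side of the 2-fold rule depends on the setting. The non-coding Hotair, known in human cells for its link to Polycomb proteins, was dim at 3.2 in D351, against 2.7 in D16. Hoxd10, a gene of the lumbar trunk and limb and the only Hoxd gene on the array, was dim as well at 0.8 in D351, against 1.2 in D16. The 5 measured Hox genes, of which 3 were chosen for their ratio, had a median log2 ratio of 0.75, which is the lower bound of Hoxb13, and nothing is read from it.

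Read along the axis, the gene of the lowest paralogue group on the array, Hoxa2 of group 2, was the 1 with more signal in D16. Hoxb4 of group 4, by its brightest probe set, and Hoxc8 of group 8 had more in D351. Hoxc9 of group 9 was close to even, and Hoxd10 of group 10 and Hoxb13 of group 13 were near background in both clones. The non-coding transcripts carry no group number. Of these, Hoxa11os, on the tail side of Hoxa, was bright in both clones (175.9 in D351, against 216.9 in D16). Hotair, on the tail side of Hoxc, was dim in both, and Hoxb5os, whose span holds Hoxb5 and Hoxb6, had more signal in D351. The remaining 33 Hox genes, among them all others of groups 1 to 7, were not analysed here. The genes thus sample the code at 6 places and do not place either clone at a level.

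**Figure D3:**
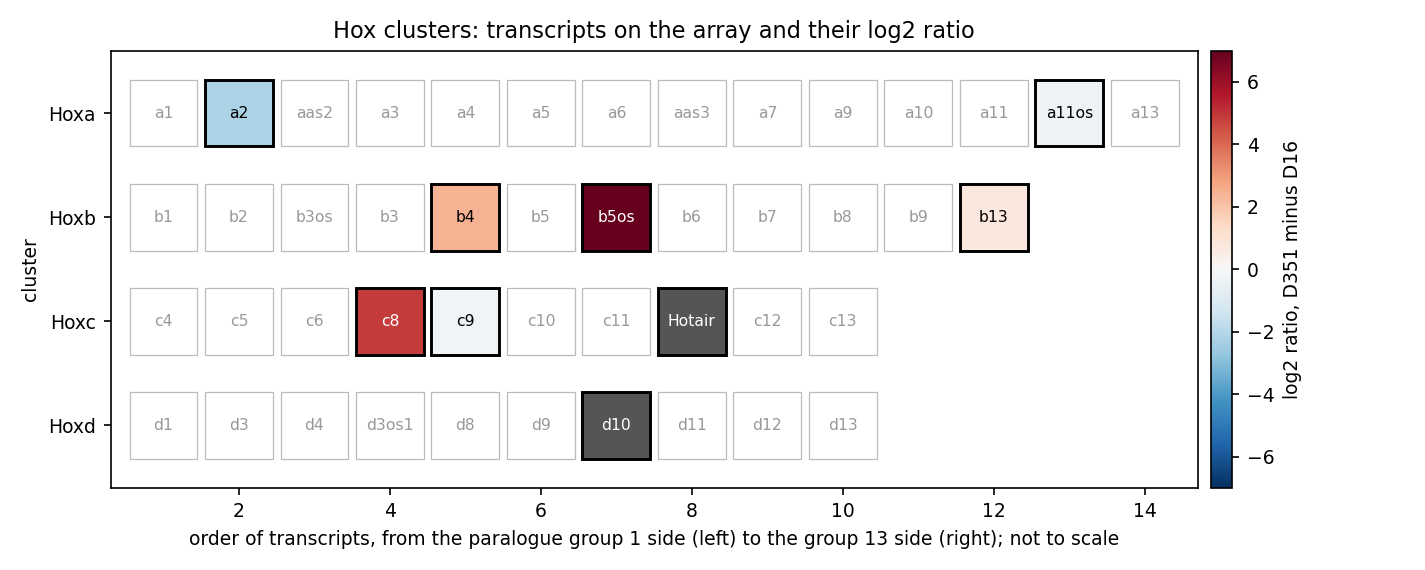
The 4 Hox clusters with their transcripts in order from the group 1 side, not to scale; coloured boxes with a black edge were measured, dark grey boxes were on the array and dim in both clones, and white boxes were not analysed here. Colour is the log2 ratio of D351 to D16 by the brightest probe set: b5os, c8 and b4 are red (higher in D351), a2 is blue (higher in D16), and c9 and a11os are nearly white.

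Genes flanking the clusters were set beside them, namely the 5 nearest annotated genes of the array on each side (39 genes in all, as 1 side of the Hoxc cluster had only 4). They lay 88.8 to 2765 kb from the clusters, so many were not close neighbours. Of these, 24 were measured, with 2 past 2-fold towards D351 and 2 towards D16, beside 20.5% of all measured genes in either direction. Around the Hoxc cluster the 6 measured neighbours had log2 ratios of -0.36 to 0.56, and around the Hoxb cluster the 5 measured had -0.51 to 1.02. The top of the Hoxb range was Spop, a ubiquitin ligase adaptor 701 kb away, at 363.6 in D351, against 179.7 in D16, by a probe set marked f. In the Hoxa set, Fam221a, 2765 kb from the cluster, read 42.2 in D351, against 12.8 in D16, by a marked probe set. Its unmarked probe set had a log2 ratio of -0.85. In the Hoxd set, Osbpl6, an oxysterol-binding protein gene 1641 kb away, read 17.7 in D351, against 67.8 in D16. That reading came from the brightest of its 4 probe sets, marked f. The RNA-binding Rbm45, 1605 kb away, was dim in D351 at 4.2, against 14.2 in D16.

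HOX proteins bind DNA with partners of the TALE homeobox class, PBX and MEIS. Of the 12 TALE-related genes listed, 2 were on the array, and 0 passed 2-fold, beside 20.5% of all measured genes in either direction. Meis1 read 11.1 in D351, against 21.5 in D16, by its brighter probe set, and was dim in both clones by the other. The repressor Tgif2 was dim in D351 at 1.1, against 9.6 in D16, at least 1.5-fold higher in D16. Both Tgif2 readings lay within the negative controls, and against the floor of 20.7 both were dim. Against the floor of 1.8 the difference was at least 5.33-fold. There 1 of 2 TALE genes passed towards D16, beside 815 of all 5209 measured genes. Retinoic acid sets the head-side limits of many Hox domains in the embryo. Of 5 measured genes of that pathway, 0 were past 2-fold towards D351 and 1 towards D16, beside 10.3% and 10.2% of all measured genes, with a median log2 ratio of -0.12. Against the floor of 1.8 there was 1 of 5 towards D351, beside 761 of all 5209 genes measured at that floor. With the floor at 20.7 there were 0 of 2 towards D16, beside 195 of 2340. The gene past 2-fold towards D16 was Crabp2, a carrier that brings retinoic acid to its receptors, dim in D351 at 4.4, against 21.4 in D16. The receptor gene Rarb was nearly even, at 55.3 in D351, against 60.1 in D16. The synthesis enzyme gene Aldh1a2 stood at 18.0 in D351, against 9.6 in D16, under 2-fold.

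Polycomb and Trithorax complexes keep Hox genes silent or active. Of 44 such genes listed, 6 were on the array and 5 were measured, with 0 past 2-fold, beside 20.5% of all measured genes, and a median log2 ratio of 0.04. Scaled to the hybridization controls, 1 of 6 passed towards D351, beside 1099 of all 3983 genes measured in that setting. The brightest were Jarid2, a partner of Polycomb complex PRC2, at 138.2 in D351, against 85.5 in D16, by a probe set marked f, and Mllt3, of the elongation machinery, at 82.6 in D351, against 141.3 in D16. This Mllt3 probe set is marked i, and the brighter of its unmarked ones read 24.1 in D351, against 23.0 in D16. Of 16 genes of the ParaHox and early axis list, Nr6a1 and Lin28a were on the array and both were dim. Other positional transcription factors had 10 measured genes, 1 past 2-fold towards D351 and 3 towards D16, beside 10.3% and 10.2% of all measured genes, with a median log2 ratio of -0.40. Against the floor of 1.8 these counts were 2 and 5 of 14, beside 761 and 815 of all 5209 genes measured at that floor. Scaled to the hybridization controls they were 2 and 1 of 10, beside 1099 and 145 of 3983. The gene higher in D351 was Tbx5, of the heart and forelimb, at 28.3 in D351, against 10.1 in D16. Higher in D16 were Tfap2a of the neural crest (35.6 in D351, against 981.2 in D16), the stem cell factor gene Sall4 (24.5 in D351, against 73.7 in D16) and the Iroquois gene Irx1 (223.5 in D351, against 466.8 in D16). Sall4 and Irx1 each rest on 1 probe set, marked r and f. Scaled to the hybridization controls Sall4 was 1.89-fold and Irx1 1.31-fold higher in D16. Some other scalings gave 1.98-fold for Irx1. Without marked probe sets 1 of 6 measured genes passed towards D16.

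**Figure D4:**
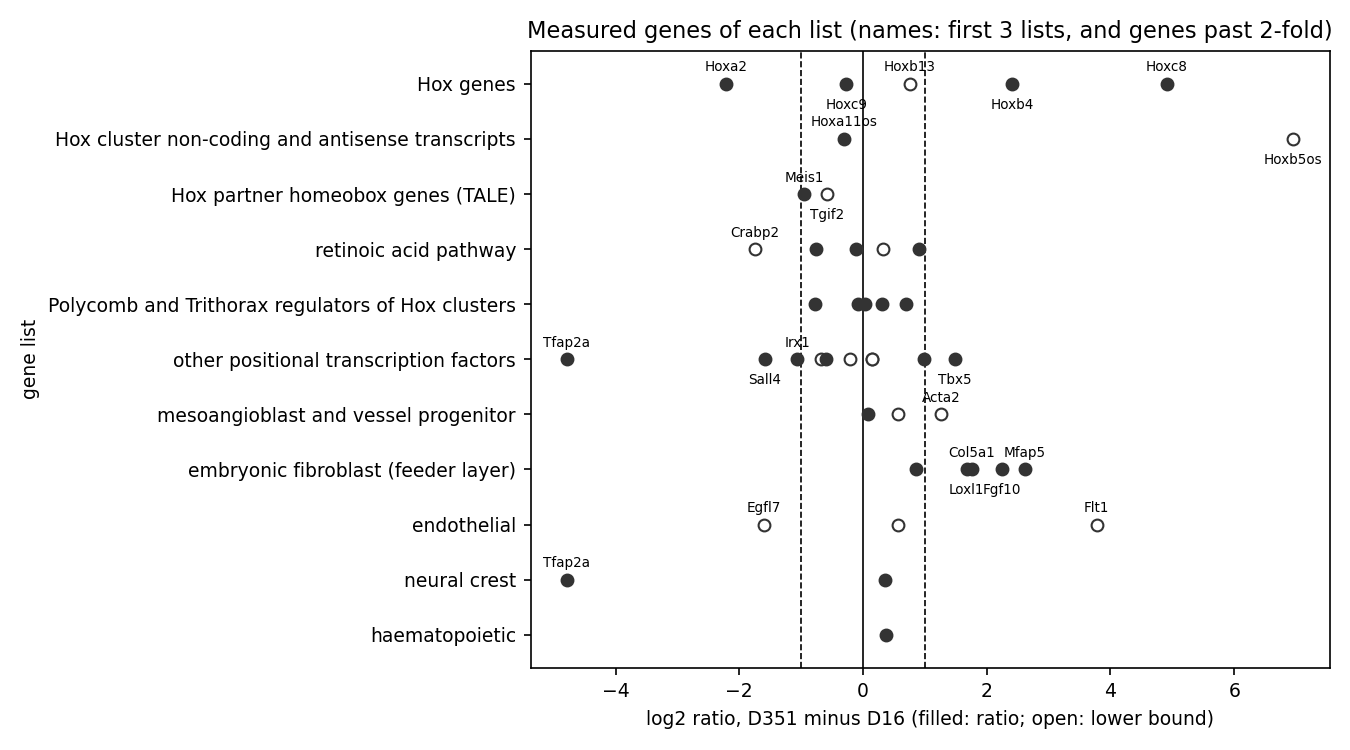
Log2 ratio of D351 to D16 for every measured gene of each list, by brightest probe set, with filled points for ratios, open points for lower bounds and dashed lines at 2-fold. The Hox rows reach from -2.21 (Hoxa2) to 6.96 (Hoxb5os), all 5 measured fibroblast markers lie above 0, and Tfap2a lies at -4.78.

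Markers of other cells that the cultures could hold moved with these differences in part. Embryonic fibroblasts formed the feeder layer, and of 20 fibroblast markers listed 5 were on the array. By their brightest probe sets all 5 were higher in D351, 4 of them past 2-fold, beside 10.3% of all measured genes. The marker lists were chosen with earlier results of these data known, so the count is a description only. Their summed intensity was 2446.5 in D351, against 704.4 in D16, with single values from 91.3 to 1838.3 in D351 and from 25.8 to 543.2 in D16. Col5a1 gave the top value in each clone, by a probe set marked f, and was dim in both by its unmarked one. Mfap5 was dim in both clones by its second probe set. The second probe set of Fgf10 read 28.6 in D351, against 17.9 in D16, under 2-fold. The part of fibroblasts in the higher Hoxb5os, Hoxc8 and Hoxb4 readings of D351 was not tested. Of 10 neural crest markers 2 were on the array, with a sum of 56.7 in D351, against 997.6 in D16. Tfap2a made up 981.2 of the D16 sum, while the other marker, Ets1, read 21.1 in D351, against 16.4 in D16, and 17.4 in D351, against 2.1 in D16, by a further probe set. The part of neural crest cells in the higher Hoxa2 reading of D16 was not tested.

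Of 19 endothelial markers 5 were on the array, summing to 102.7 in D351, against 26.3 in D16. The VEGF receptor gene Flt1 gave most of the D351 sum at 87.6, against 1.3 in D16, Egfl7 read 3.8 in D351, against 19.5 in D16, and Sox17 and Sox18 were dim in both clones. The haematopoietic list was represented by Itga2b alone, at 49.9 in D351, against 38.7 in D16. Of 15 markers for mesoangioblasts and vessel progenitors, 3 were on the array: Itgb1 read 131.4 in D351, against 124.0 in D16, Kdr 9.5 in D351, against 1.6 in D16, and Acta2 15.4 in D351, against 4.7 in D16. Both Kdr readings and the D16 reading of Acta2 lay within the negative controls. Cd34, Kit and Thy1 were not analysed here, so the labelled cell type could be checked only in small part.

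Genes with the readings most like each of the 4 were found by the distance between log2 values on the 2 arrays, dim values raised to the floor. Genes known only by a locus or clone name were passed over. With 2 arrays such likeness means similar intensities only. Nearest to Hoxc8 were Tfpi, the tissue factor pathway inhibitor (233.7 in D351, against 2.4 in D16, distance 0.25), the RNA-binding Khdrbs3 (189.6 in D351, against 0.3 in D16) and the smooth muscle gene Lmod1 (288.2 in D351, against 2.6 in D16). For Hoxb5os the nearest of the genes searched was Lrrc32 (563 in D351, against 12.8 in D16) at a distance of 1.12, followed by Ano3 and Sox11. Nearest to the brightest Hoxb4 probe set were S100a16 (316.1 in D351, against 54.5 in D16), the fibroblast marker Mfap5 (257.2 in D351, against 41.9 in D16) and Anxa5 (216.2 in D351, against 42.2 in D16). Nearest to Hoxa2 were Ctnnal1 (23.4 in D351, against 94.1 in D16), Sapcd2 (24.5 in D351, against 101.8 in D16) and the mitochondrial ribosomal protein gene Mrps10 (24.7 in D351, against 100.7 in D16).

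Other scalings, floors, a pseudocount and other choices of probe set left the direction of all 4 genes as given, but most could not reverse it. A floor or pseudocount shared by both arrays keeps the order of the readings. Scaling to the hybridization controls corrected for a log2 ratio of -0.67, smaller in size than each reported ratio or bound. Hoxc8, Hoxa2 and Hoxb5os have a single probe set, so averaging returned the reported value. Leaving out marked probe sets did the same for Hoxc8 and Hoxa2. For Hoxc8 the log2 ratio or bound ran from 3.46 to 5.53 over 9 alternatives, for Hoxb5os the bound or ratio from 5.26 to 8.50 over 8, and for Hoxa2 the ratio or bound from -2.24 to -1.53 over 9. Hoxb4 ran from 0.38 to 3.09 and was under 2-fold in 2 of 9, those that used unmarked probe sets only or averaged its probe sets. No alternative took Hoxb4 from its probe set marked r alone, which lay in the opposite direction.

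**Figure D5:**
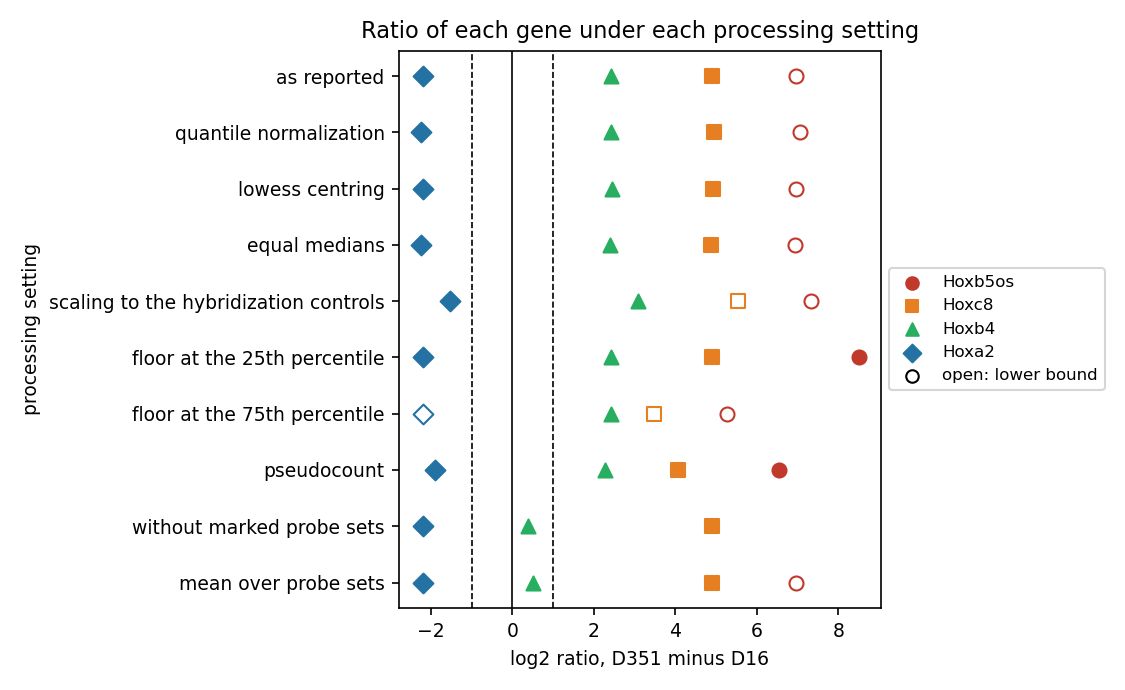
Log2 ratio of D351 to D16 for Hoxb5os, Hoxc8, Hoxb4 and Hoxa2 as reported and under each alternative, with open symbols for lower bounds and dashed lines at 2-fold; Hoxb5os has no unmarked probe set and so no value in that row. Hoxa2 stays left of -1 throughout, and Hoxb4 falls to 0.38 and 0.50 in the lowest rows.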

How the data were processed

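Total RNA of clones D351 and D16 was measured on 1 array each, and the authors deposited 1 linear intensity per probe set. The software that made the intensities is not given in the sources used here. Both arrays had the same mean of 20.01 once 2% of probe sets at either end were dropped, a pattern that scaling to a shared mean gives. The values were used as deposited, without the 66 control probe sets, which left 11868. Of these, 7717 had a single gene in the platform annotation, 150 several and 4001 none. A gene was represented by its probe set of highest mean floored log2 value. Differences were described by a 2-fold rule. The calling was tested on simulated data, where the changed probe sets lay well above the floor and noise was below the spread seen here. That test does not show how dim values or differences near 2-fold are called. With 1 array a clone no test could be made, and precision is limited by the number of arrays. The members and gene lists were chosen with earlier results of these data known. Named were all Hox and TALE genes, and from each other list up to 4 genes past 2-fold each way or the 2 brightest. Also named were flanking genes past 2-fold and the 3 nearest genes of each member, locus and clone names passed over. Alternatives were other scalings, floors, a pseudocount, a 3-fold rule and other choices of probe set. Computation used numpy 2.4.6, pandas 2.3.3 and statsmodels 0.14.6 under Python 3.11.15.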

Additional observations from a re-analysis of the deposited data

How the results depend on the processing

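No paired analysis was possible because each clone has 1 array, and for the same reason no replicate could be left out. The cause of the changes below was not tested beyond what each setting itself alters. With the floor at the 75th percentile the log2 bound was 3.46 for Hoxc8 and 5.26 for Hoxb5os; at the 25th percentile Hoxb5os became a ratio of 8.50, and with a pseudocount Hoxc8 was 4.07. Hoxb4 was 0.38 by its unmarked probe set and 0.50 as a mean over probe sets, which left 1 Hox gene past 2-fold towards D351 in both settings. With the floor at the 25th percentile, and scaled to the hybridization controls, there were 3, Hoxb13 being added. The retinoic acid list then had 1 gene past 2-fold towards D351, and with a pseudocount or the lower floor 1 TALE gene, Tgif2, passed towards D16. Scaled to the hybridization controls, the median of all measured genes moved to 0.59. There 1099 of 3983 genes passed 2-fold towards D351 against 145 towards D16. These counts were 761 and 815 of 5209 measured genes with the lower floor, and 185 and 195 of 2340 with the higher floor. They were 180 and 140 of 3934 at 3-fold, and 265 and 254 of 2524 without marked probe sets. The number of measured genes changes with the setting, so the counts alone are not comparable. Under that control scaling the list medians were 1.12 for Hox genes, 3.85 for cluster transcripts, -0.28 for TALE genes, 0.55 for retinoic acid, 0.65 for Polycomb and Trithorax, 0.048 for other positional factors and 0.50 for the flanking genes. With the higher floor they were 1.07 for Hox genes, 2.48 for cluster transcripts, -0.055 for TALE genes and -0.83 for other positional factors, and with the lower floor 0.25, -1.68 and -0.16 for the last 3. Without marked probe sets the retinoic acid median was -0.93, that of the flanking genes -0.25, and Fam221a turned to -0.85. Dim values limit the folds: in D16, Hoxb5os and Hoxc8 lay within the negative controls.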
